A study of Homo sapiens with 8 samples.

Results

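The 10 genes described here encode claudins and other proteins of the tight junction, the claudins CLDN1, CLDN2, CLDN3, CLDN4, CLDN7 and CLDN12, the membrane proteins OCLN and F11R, and the plaque proteins TJP1 and CGN. They were chosen by symbol, by matching the gene identifiers of the deposited table to GENCODE, and all 10 were found among its 43869 genes. Their RNA was taken from bulk RNA-seq, and their chromatin from ChIP-seq of H3K27ac, an acetylation of histone H3 found at active promoters and enhancers. The 4 lines compared were treatment-naive H3122 cells, a human lung adenocarcinoma cell line that carries the EML4-ALK fusion, and the lines erCriz0, erAlec0 and erLor0 derived from it, which had evolved resistance to ALK tyrosine kinase inhibitors by gradual dose escalation. The labels give 0.5 µM crizotinib for erCriz0, 2 µM alectinib for erAlec0 and 2 µM lorlatinib for erLor0, and name DMSO, the solvent, for all samples. RNA was isolated after a drug holiday. The study's methods name no such holiday for ChIP-seq, so the cells of both assays may have differed in drug state. Each resistant line was 1 derivation, so an effect of the drug and a property of the line cannot be told apart.

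Tight junctions seal the space between neighbouring epithelial cells near their apical side. Claudins are 4-pass membrane proteins whose extracellular loops meet those of the adjacent cell, and different claudins make the seal tighter or let certain ions pass. Occludin (OCLN) and the immunoglobulin-like protein JAM-A (F11R) lie in the same strands or beside them, and the scaffold ZO-1 (TJP1) and cingulin (CGN) tie them to actin from the inside.

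Values are rlog values, a log2 scale on which the authors shrank differences of features with few reads, and a change is the value in a resistant line less the value in naive cells. Each line gave 1 library per assay, so differences could not be set against replicates and carry no p-value. All 3 comparisons share the naive library, so an error in it would appear in each of them. Read totals cannot be recovered from rlog values, and the depth of the libraries is therefore unknown. A gene was called up or down at a change of at least 1, a 2-fold difference, and expressed at an rlog of at least 4.64, the log2 of 25 reads, in at least 1 library. This left 12701 expressed genes, 9 of the 10 tight junction genes among them. Epithelial markers were expressed in these libraries, 5 of 5 (EPCAM, KRT8, KRT18, KRT19, CDH1), and of the lung lineage NKX2-1 was expressed and NAPSA, SFTPB and SFTPC were not. The leukocyte marker PTPRC was listed at 0, and CD68 and CD3E were not expressed, while 2 of 4 endothelial markers (CDH5 and KDR) and COL1A1 of the fibroblast markers were. In bulk samples fewer cells with a transcript and less of it per cell cannot be told apart.

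The promoters of 5 of these genes are printed first, as RefSeq gives them on GRCh38.p14, from 250 bases before to 50 after the transcription start. CLDN1 and CLDN3 are shown because their RNA passed the limit, TJP1 and OCLN because H3K27ac at their starts was higher in erLor0, and CLDN7 as a claudin with little change in either assay. Capitals mark, on both strands, the letters CAGGTG (an E-box bound by factors such as SNAI1 and ZEB1), TGANTCA (AP-1), GGAATG (TEAD), AACCGGTT (grainyhead-like) and GGGCGG (SP1), and matches may overlap.
CLDN1 promoter, chr3:190322397-190322696, minus strand: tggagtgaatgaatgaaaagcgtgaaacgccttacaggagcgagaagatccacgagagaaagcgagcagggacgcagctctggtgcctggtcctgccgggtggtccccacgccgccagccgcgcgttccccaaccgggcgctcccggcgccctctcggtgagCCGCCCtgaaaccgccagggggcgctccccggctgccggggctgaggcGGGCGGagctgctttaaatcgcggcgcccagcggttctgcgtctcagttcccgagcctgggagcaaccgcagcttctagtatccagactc
CLDN3 promoter, chr7:73770221-73770520, minus strand: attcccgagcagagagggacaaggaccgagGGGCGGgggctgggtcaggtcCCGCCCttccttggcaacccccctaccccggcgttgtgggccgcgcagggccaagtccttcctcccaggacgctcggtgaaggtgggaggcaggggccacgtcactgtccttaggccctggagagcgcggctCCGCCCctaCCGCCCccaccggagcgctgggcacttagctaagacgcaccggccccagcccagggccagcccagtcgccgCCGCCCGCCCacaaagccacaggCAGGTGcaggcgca
CLDN7 promoter, chr17:7262429-7262728, minus strand: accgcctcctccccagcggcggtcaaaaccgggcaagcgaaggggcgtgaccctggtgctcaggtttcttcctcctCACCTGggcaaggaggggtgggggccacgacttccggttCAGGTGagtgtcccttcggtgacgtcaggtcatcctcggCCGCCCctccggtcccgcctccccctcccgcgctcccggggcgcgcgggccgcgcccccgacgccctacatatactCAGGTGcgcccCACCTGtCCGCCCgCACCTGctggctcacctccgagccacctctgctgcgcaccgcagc
OCLN promoter, chr5:69492540-69492839, plus strand: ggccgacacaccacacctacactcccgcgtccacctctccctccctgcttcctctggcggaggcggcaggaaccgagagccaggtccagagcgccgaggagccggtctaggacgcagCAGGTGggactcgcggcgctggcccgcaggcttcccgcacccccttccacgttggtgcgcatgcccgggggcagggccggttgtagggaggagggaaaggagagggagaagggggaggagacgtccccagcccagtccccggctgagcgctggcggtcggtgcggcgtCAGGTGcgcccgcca
TJP1 promoter, chr15:29822419-29822718, minus strand: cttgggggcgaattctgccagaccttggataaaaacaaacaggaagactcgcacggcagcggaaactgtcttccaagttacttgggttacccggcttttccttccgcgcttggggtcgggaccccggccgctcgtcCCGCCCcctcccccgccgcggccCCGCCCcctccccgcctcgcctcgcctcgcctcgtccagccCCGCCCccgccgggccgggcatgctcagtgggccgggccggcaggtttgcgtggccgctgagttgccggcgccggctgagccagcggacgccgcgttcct

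A promoter at the canonical start was found in the RefSeq table for 8 of the 10 genes, with no such entry for CLDN2 and F11R. CAGGTG occurred in 3 of these 8, with 5 matches in CLDN7, 2 in OCLN and 1 in CLDN3, and in 20.6% of all 34943 promoters of the same length. GGGCGG occurred in 6 of 8, with 6 matches in CLDN3 and 2 in CLDN1, against 44.9% of all promoters. TGANTCA occurred in CLDN4 alone of the 8, with 2 matches, against 7.72%. GGAATG and AACCGGTT were in 0 of 8, against 14.0% and 0.132%. Of the 8 promoters 7 lay whole inside the H3K27ac peak at the start, and that of CLDN1 lay partly in it.

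CLDN1, a barrier-forming claudin, had the widest RNA range of the 10 genes. It lies on the minus strand at chr3:190305707-190322446 of hg38. Its RNA level was 7.68 in naive cells, 9.08 in erCriz0, 8.75 in erAlec0 and 8.54 in erLor0. All 3 resistant lines were above naive cells, erCriz0 by the most. In erCriz0 the change was 1.41, a 2.65-fold difference. It was 1.07 in erAlec0, and in erLor0, at 0.86, it stayed below the limit. Among 2332 expressed genes within 0.5 of its mean level, the middle 95% of changes ran from -0.92 to 0.79 in erCriz0, from -1.01 to 0.95 in erAlec0 and from -0.71 to 0.69 in erLor0, and CLDN1 lay above each of these ranges. It ranked 154th, 246th and 237th from the top of all expressed genes in the 3 lines in that order.

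CLDN3, also a barrier-forming claudin, moved in 1 line and in the other direction. It lies on the minus strand at chr7:73768997-73770270. Its RNA level was 8.52 in naive cells, 7.24 in erCriz0, 8.34 in erAlec0 and 8.51 in erLor0, so that erCriz0 stood below the other 3 libraries, which lay close together. Its erCriz0 change of -1.28 was the 75th lowest of all expressed genes and lay below the range of -0.95 to 0.90 for genes of similar level. The changes in erAlec0 and erLor0 were -0.18 and -0.01. Corrected for transcript length, CLDN3 RNA stood above CLDN1 RNA by 2.28 in naive cells, 1.03 in erAlec0 and 1.41 in erLor0, all on the log2 scale, and below it in erCriz0, with a difference of -0.41. The order of these claudins was therefore turned around in erCriz0 alone of the 4 libraries.

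CLDN4, CLDN7 and CLDN12 changed by less than the limit in each line. CLDN4, on the plus strand at chr7:73799542-73832693 next to CLDN3, encodes a claudin that restricts sodium, and its RNA level was 10.77 in naive cells, 10.67 in erCriz0, 10.96 in erAlec0 and 10.72 in erLor0. CLDN7, on the minus strand at chr17:7259903-7263983, gave 10.46 in naive cells, 10.23 in erCriz0, 10.71 in erAlec0 and 10.58 in erLor0. Both genes thus stayed within 0.48 of their own lowest library. CLDN12, on the plus strand at chr7:90383721-90513402, encodes a claudin without the usual PDZ-binding end, and its RNA level was 10.41 in naive cells, 11.07 in erCriz0, 11.12 in erAlec0 and 10.68 in erLor0. CLDN12 RNA was higher in all 3 resistant lines, by 0.67, 0.71 and 0.27, inside the middle 95% of genes of similar level in each. CLDN12 overlaps 4 genes on its strand, GTPBP10, CDK14, PTTG1IP2 and ENSG00000273299, and CLDN7 overlaps ELP5 on the other strand and the readthrough gene ENSG00000262302 on its own, so the assignment of reads to these claudins is uncertain. CLDN2, a claudin that forms pores for cations, was listed at 0 in all 4 libraries (chrX:106900164-106930861, plus strand).

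The membrane proteins beside the claudins differed little between lines. OCLN, on the plus strand at chr5:69492292-69558104, had an RNA level of 9.35 in naive cells, 9.62 in erCriz0, 9.49 in erAlec0 and 9.52 in erLor0. F11R, on the minus strand at chr1:160995211-161021343, had 8.56 in naive cells, 8.57 in erCriz0, 8.80 in erAlec0 and 8.66 in erLor0. The largest of these changes was 0.27, for OCLN in erCriz0. OCLN has a partial pseudogene copy on the same chromosome, and reads shared with it cannot be assigned with certainty.

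The plaque proteins had the highest levels per length and small changes. TJP1, on the minus strand at chr15:29699367-29968865, had an RNA level of 13.35 in naive cells, 12.99 in erCriz0, 13.40 in erAlec0 and 13.53 in erLor0, so erCriz0 was lowest and its change was -0.37. CGN, on the plus strand at chr1:151510510-151538692, had 12.81 in naive cells, 12.85 in erCriz0, 13.01 in erAlec0 and 12.81 in erLor0. Once the log2 of the canonical transcript's length in kb was subtracted, the order of levels in naive cells was TJP1 at 10.51, CGN at 10.46, CLDN4 at 10.00, CLDN7 at 9.83, CLDN12 at 8.58, CLDN3 at 8.17, OCLN at 6.72, F11R at 6.34 and CLDN1 at 5.89. In erCriz0 CLDN1 reached 7.30 on this scale, above CLDN3 at 6.89, OCLN at 6.99 and F11R at 6.36. With 1 library per line, no spread is known by which neighbours in this order could be told apart.

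**Figure D1:**
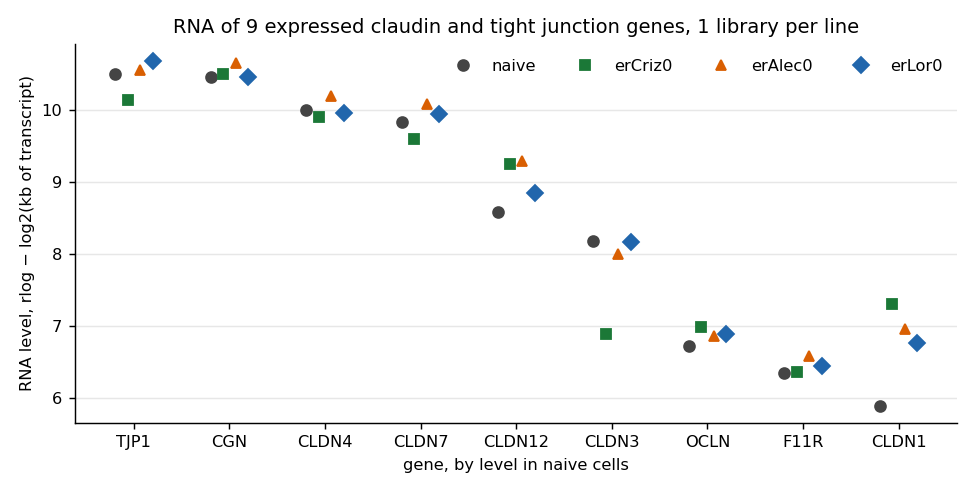
RNA level of the 9 expressed genes, as rlog minus the log2 of the canonical transcript's length in kb, with genes on the x axis in order of their level in naive cells and 1 point per library. CLDN1 lies higher in the 3 resistant lines than in naive cells, CLDN3 lies at 6.89 in erCriz0 against 8.17 in naive cells, and the other genes keep their 4 points closer together.

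Counted over the 10 genes, CLDN1 was up in erCriz0 and erAlec0, 1 gene up in each, and 0 were up in erLor0. CLDN3 was the 1 gene down in erCriz0, and 0 were down in the other lines. The background over all expressed genes was 2.65% up and 1.65% down for erCriz0, 2.46% up and 2.07% down for erAlec0, and 1.10% up and 0.740% down for erLor0. With 10 genes, 1 call is too coarse a share to set against these. Median changes of the 9 expressed genes for erCriz0, erAlec0 and erLor0 in that order were 0.01, 0.20 and 0.12, where those of all expressed genes were -0.02, 0.0020 and -0.0043. With CLDN2 counted at 0 the medians over all 10 genes were 0.0066, 0.20 and 0.11. In erAlec0 8 of the 9 genes were higher than in naive cells, by between 0.05 and 1.07, and CLDN3 was lower, while 50.3% of all expressed genes were higher. Under quantile normalization TJP1 turned to -0.08 in erAlec0, which leaves 7 of 9. Most expressed genes were also higher in erAlec0 in other lists of junction and epithelial genes described below. The share was 75.0% of 16 adherens junction and desmosome genes, the highest of these lists, and 33.3% of 3 other claudins, the lowest.

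The genes whose levels followed CLDN1 and CLDN3 most closely over the 4 libraries were found as those with the smallest Euclidean distance after each gene's mean was subtracted. Nearest to CLDN1 were GLIS3, which encodes a zinc finger transcription factor, at a distance of 0.078, PLGRKT, a plasminogen receptor, at 0.11, and WNT5A, a Wnt ligand, at 0.12. WNT5A RNA was 6.82 in naive cells, 8.16 in erCriz0, 7.78 in erAlec0 and 7.52 in erLor0. Nearest to CLDN3 were MSI1, an RNA-binding protein, at 0.059, MLXIPL, a glucose-responsive transcription factor, at 0.069, and RHOD, a small GTPase, at 0.092. MLXIPL lies 144453 bases from CLDN3 on the same chromosome, and its RNA was 7.77 in naive cells, 6.41 in erCriz0, 7.51 in erAlec0 and 7.68 in erLor0. CLDN4, on the other side of CLDN3, changed by -0.10 in erCriz0, and the median over 57 expressed genes within 5 Mb of CLDN3 was -0.15. With 4 libraries, many genes share such a pattern.

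The authors paired each H3K27ac peak with genes up to 20 kb away, and 132 peaks were paired with the 10 genes, none with more than 1 of them. Of these, 91 reached the peak minimum of 3.91, the log2 of 15 reads, in at least 1 library. At a change of at least 1, the peaks up numbered 3 (2.27%) for erCriz0, 4 (3.03%) for erAlec0 and 5 (3.79%) for erLor0, against 7.00%, 14.1% and 7.45% of all 126470 peaks. The peaks down numbered 5 (3.79%) for erCriz0, 16 (12.1%) for erAlec0 and 7 (5.30%) for erLor0, against 5.94%, 9.41% and 8.82% of all peaks. The median change was -0.19, -0.34 and -0.09 in the 3 lines, where the median of all peaks was 0.0000, 0.0033 and 0.0000. Neighbouring peaks of a gene are not independent, and 25 of the 132 belong to CLDN4 and 26 to TJP1. In erAlec0 12 of 46 peaks within introns were down, beside 2 of 25 over exons, 2 of 28 upstream and 0 of 33 downstream of the genes. Of these 12, 5 lay in a run of neighbouring peaks in CLDN4 and 4 in a run in TJP1, both described below. Shares by location over all peaks were not computed, so no difference between locations can be read from these counts.

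**Figure D2:**
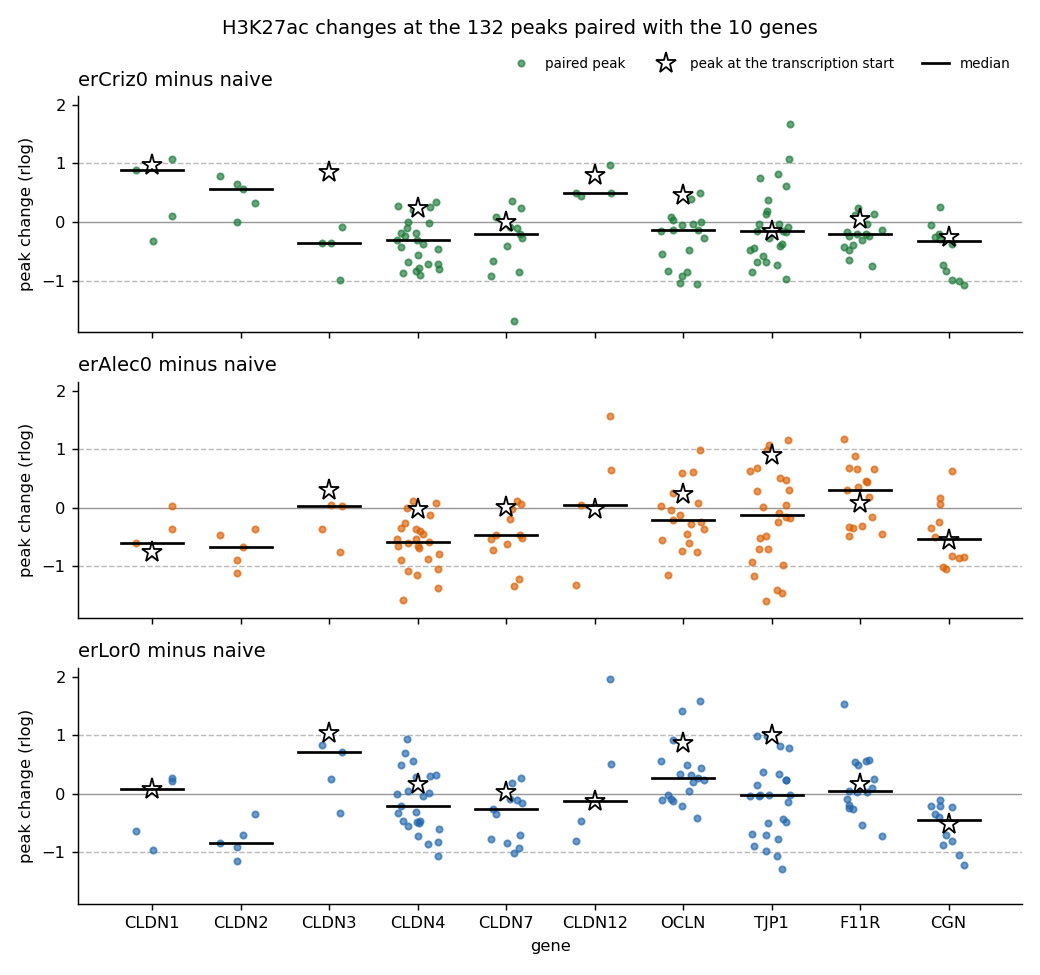
Change of each of the 132 H3K27ac peaks paired with the 10 genes, in rlog, with 1 panel per resistant line and genes on the x axis; dots are peaks, stars are peaks at the canonical transcription start and black bars are medians. Most dots lie between the dashed lines at -1 and 1, the dots of CLDN4 and CGN lie mostly below 0, and the stars of CLDN3, OCLN and TJP1 lie near or at 1 in erLor0.

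At the transcription starts, RNA and H3K27ac did not move together in every gene. The start-site peak of CLDN1 (chr3:190316926-190322519) had an rlog of 8.65 in naive cells, 9.62 in erCriz0, 7.89 in erAlec0 and 8.74 in erLor0. H3K27ac was thus highest in erCriz0, where CLDN1 RNA was also highest, and lowest in erAlec0, with a change of -0.76 beside an RNA change of 1.07. The start-site peak of CLDN3 (chr7:73768235-73775168) had 8.90 in naive cells, 9.76 in erCriz0, 9.21 in erAlec0 and 9.95 in erLor0. This peak was higher in all 3 lines, by 0.86 in erCriz0, where CLDN3 RNA was lower by 1.28 on the log2 scale, and by 1.04 in erLor0, where its RNA changed by -0.01. The other peaks of CLDN3 included 1 downstream (chr7:73748603-73749287) whose changes were -0.99, -0.76 and -0.33 for erCriz0, erAlec0 and erLor0.

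TJP1 and OCLN had more H3K27ac at their starts in erLor0 with little change of RNA. The start-site peak of TJP1 (chr15:29808813-29823583) had an rlog of 10.64 in naive cells, 10.49 in erCriz0, 11.54 in erAlec0 and 11.64 in erLor0, so that erAlec0 and erLor0 stood above the other pair by about 1. Less the median of 324 other peaks within 5 Mb, the change was 0.39 in erAlec0, where that median was 0.52, and 0.91 in erLor0. With the 119 other peaks within 2 Mb the median in erAlec0 was 0.12 and the change less it 0.78, so the erAlec0 value depends on the window. The start-site peak of OCLN (chr5:69484831-69497243) had 10.12 in naive cells, 10.58 in erCriz0, 10.35 in erAlec0 and 10.98 in erLor0. Its surroundings were lower in all 3 lines, with medians of -0.22, -0.53 and -0.47 over 434 other peaks, and less these the change was 0.69, 0.76 and 1.33.

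The start-site peak of CLDN12 changed by 0.80 in erCriz0, and by -0.02 and -0.13 in erAlec0 and erLor0. For CLDN4, CLDN7 and F11R the start-site changes lay between -0.02 and 0.24 in the 3 lines. The start-site peaks of CLDN7 and F11R were paired with 11 and 5 genes, so their H3K27ac cannot be assigned to CLDN7 or F11R alone. At CGN, whose start-site peak is 29118 bases long, the start-site changes were -0.25, -0.55 and -0.51, with RNA changes of 0.04, 0.20 and 0.0022. Less the median of 1125 other peaks within 5 Mb, these start-site changes were 0.04, -0.55 and -0.48. RNA and start-site peak had the same sign in 6 of the 9 expressed genes for erCriz0, 4 of 9 for erAlec0 and 5 of 9 for erLor0, and most of these changes were small. The median start-site change of the 9 genes was 0.24, 0.0063 and 0.17. CLDN2 had no peak at its canonical start. A weak peak at another start of CLDN2 (chrX:106917860-106918707) had an rlog of 4.91 in naive cells, 5.69 in erCriz0, 4.44 in erAlec0 and 4.07 in erLor0, although CLDN2 RNA was listed at 0. This peak was paired with 3 genes, so its H3K27ac cannot be assigned to CLDN2 alone.

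**Figure D3:**
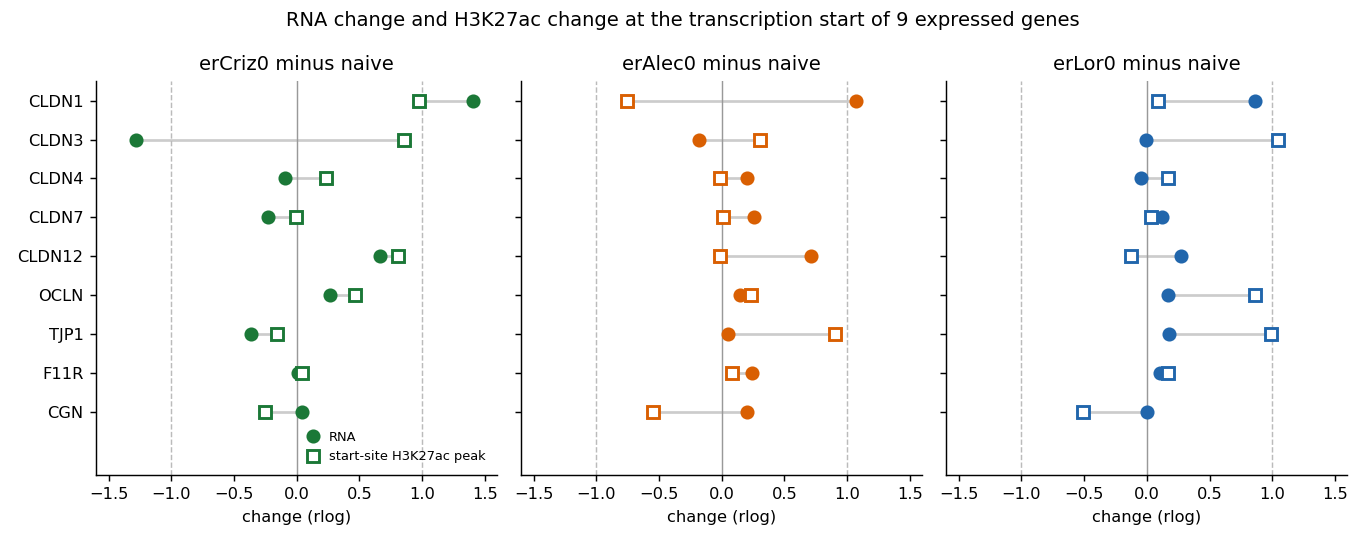
RNA change (filled circles) and change of the H3K27ac peak at the canonical start (open squares) of the 9 expressed genes on the y axis, in rlog on the x axis, with 1 panel per resistant line and a grey bar joining both values of a gene. The bars are longest for CLDN3 in erCriz0, from -1.28 to 0.86, and for CLDN1 in erAlec0, from -0.76 to 1.07, while both values of CLDN7 and F11R stay near 0.

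Away from the starts, the largest peak gain of the 10 genes among peaks above the minimum was in an intron of CLDN12, 57077 bases downstream of its start (chr7:90459841-90461235). Its rlog was 5.13 in naive cells, 6.10 in erCriz0, 6.70 in erAlec0 and 7.09 in erLor0, so all 3 resistant lines lay above naive cells, with changes of 0.96, 1.57 and 1.96. This peak was paired with 4 genes. A second intron peak of CLDN12 (chr7:90424324-90427272) went the other way in 2 lines, with 7.13 in naive cells, 7.63 in erCriz0, 5.81 in erAlec0 and 6.32 in erLor0. CLDN12 RNA was 11.07 in erCriz0 and 11.12 in erAlec0, the pair of lines in which this second peak differed most.

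A run of 10 weak peaks in an intron of the longer CLDN4 transcripts (chr7:73812605-73821244), between its strongest intron peak and its start-site peak, was lower in all 3 lines in 10 of 10 peaks. The medians of these changes for erCriz0, erAlec0 and erLor0 were -0.70, -0.97 and -0.58, with 0, 5 and 1 peaks down. The largest single fall was at chr7:73818008-73818796, with 5.21 in naive cells, 4.34 in erCriz0, 3.64 in erAlec0 and 4.75 in erLor0. Upstream of CLDN4, the peak at chr7:73796831-73798690 was higher in erLor0 alone, at 7.01 against 6.06 in naive cells, 5.95 in erCriz0 and 6.05 in erAlec0. The start-site peak of CLDN4, at 12.34 in naive cells, was far stronger than any of these and changed by at most 0.24.

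In TJP1, 5 intron peaks upstream of the canonical start (chr15:29843846-29858042) had median changes of -0.37, -1.41 and -0.97 for erCriz0, erAlec0 and erLor0, and all 5 were lower in erAlec0 and erLor0. The other 3 intron peaks before the start lay farther away. Their changes were 1.07, 1.15 and -0.25 in erAlec0, and -0.02, -0.14 and -0.76 in erLor0. Those that rose in erAlec0 did not reach the peak minimum, nor did some of the 5 lower peaks. The strongest of the 5 lower peaks (chr15:29848985-29850865) had an rlog of 7.27 in naive cells, 7.40 in erCriz0, 5.68 in erAlec0 and 6.30 in erLor0. The lines erAlec0 and erLor0 are also those in which the peak at the TJP1 start was higher. Downstream of TJP1, a peak at chr15:29674799-29679698 had 7.61 in naive cells, 9.27 in erCriz0, 7.43 in erAlec0 and 7.58 in erLor0, a gain in erCriz0 alone. This downstream peak was paired with 3 genes.

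Most peaks of CGN were lower than in naive cells, and 1, 3 and 0 of its 12 peaks were higher in erCriz0, erAlec0 and erLor0. Their median changes in that order were -0.32, -0.52 and -0.46. The medians of 1125 other peaks within 5 Mb were -0.28, 0.0000 and -0.03. Less these, the CGN medians were -0.04, -0.52 and -0.42, so in erCriz0 the surroundings were lower by a similar amount. The 3 peaks upstream of CGN (chr1:151490416-151496457) had median changes of -1.02, -0.85 and -1.04 and were paired with no other gene. The middle peak of these (chr1:151491295-151492089) had 7.51 in naive cells, 6.44 in erCriz0, 6.67 in erAlec0 and 6.31 in erLor0. CGN RNA changed by 0.20 or less over the same lines. The stretches in CLDN4, TJP1 and CGN were picked after their values were seen and are given as a description.

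**Figure D4:**
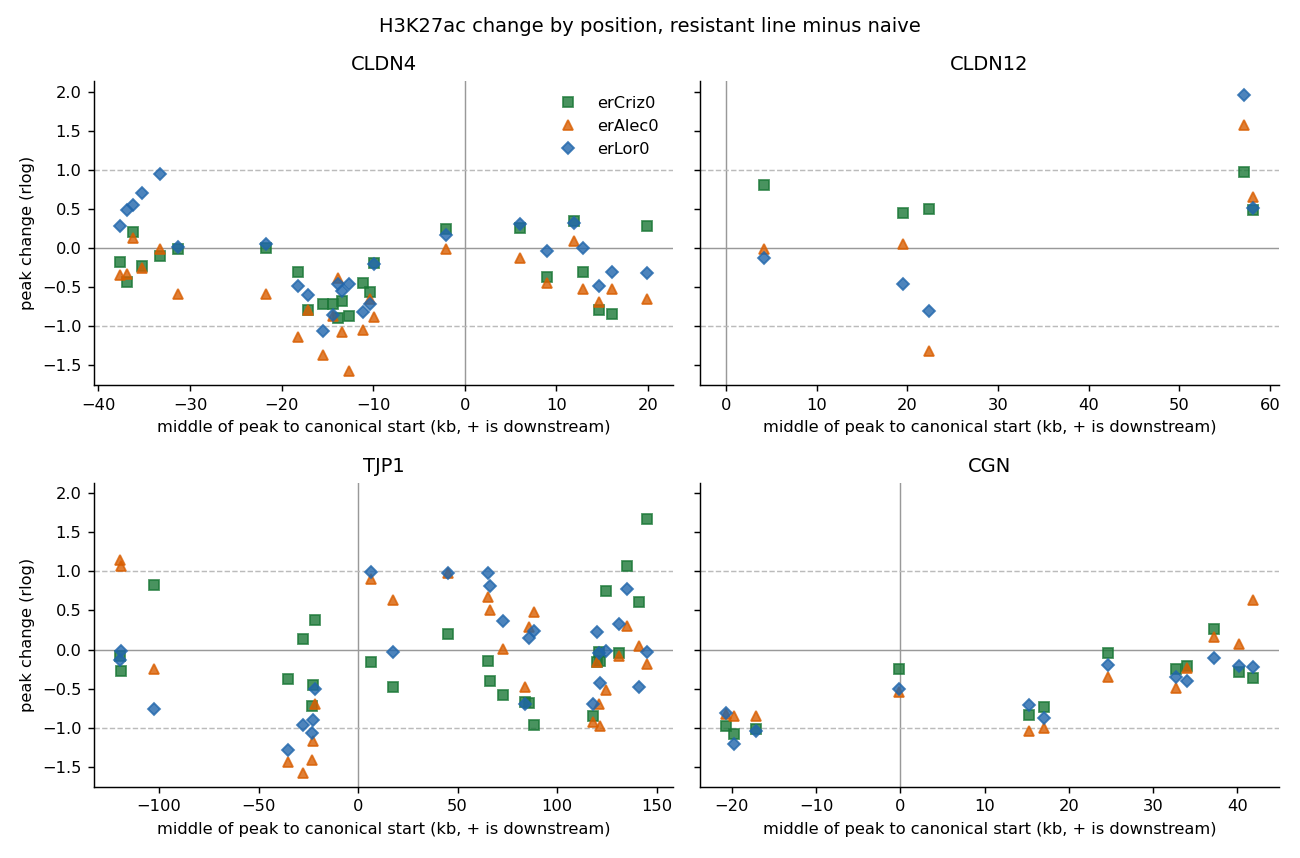
Change of each paired H3K27ac peak, in rlog, against the distance of its middle from the canonical transcription start in kb, with downstream positive, for CLDN4, CLDN12, TJP1 and CGN; squares are erCriz0, triangles erAlec0 and diamonds erLor0. Lower peaks cluster before the start of CLDN4 and TJP1 and upstream of CGN, and the highest points of CLDN12, up to 1.96, lie 57077 bases downstream.

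Single upstream peaks of OCLN and F11R were higher in erAlec0 and erLor0. The OCLN peak at chr5:69476382-69478796 had an rlog of 6.18 in naive cells, 6.13 in erCriz0, 6.78 in erAlec0 and 7.59 in erLor0. The F11R peak at chr1:161028401-161031909 had 5.77 in naive cells, 5.34 in erCriz0, 6.94 in erAlec0 and 7.30 in erLor0. The OCLN peak was paired with 4 genes and the F11R peak with 6. Both were lowest in erCriz0 and highest in erLor0. Inside OCLN, a peak over an exon (chr5:69509125-69509660) had 4.90 in naive cells, 4.06 in erCriz0, 3.75 in erAlec0 and 4.87 in erLor0. At CLDN7 the largest fall was at chr17:7278728-7281860, with 7.90 in naive cells, 7.04 in erCriz0, 6.69 in erAlec0 and 6.98 in erLor0, a peak that covers the start of SLC2A4, a glucose transporter gene. The largest gain at CLDN7, 0.35 in erCriz0 at chr17:7239779-7245452, was at a peak that covers the start of GABARAP. The remaining extremes were small, a gain of 0.64 in erAlec0 downstream of CGN (chr1:151553027-151553423), a change of -0.75 in erCriz0 upstream of F11R (chr1:161025758-161026315) and of -0.91 in erLor0 upstream of CLDN2 (chrX:106894485-106895690). In that order, these peaks were paired with 5, 5 and 4 genes.

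Among 18 other claudins listed, 14 were in the table and 3 were expressed, CLDN9, CLDN10 and CLDN15. CLDN10, whose isoforms form ion pores, had an RNA level of 10.44 in naive cells, 11.08 in erCriz0, 9.40 in erAlec0 and 9.29 in erLor0. CLDN10 was down in erAlec0 and erLor0, by changes of -1.04 and -1.15, and higher by 0.64 in erCriz0. CLDN9 had 5.50 in naive cells, 4.36 in erCriz0, 5.38 in erAlec0 and 5.31 in erLor0. Its change in erCriz0, the line in which CLDN3 was also down, was -1.14. CLDN15 was within 0.29 of naive cells in each line. In each line 1 of the 3 expressed genes (33.3%) was down and 0 were up. Of all expressed genes 1.65%, 2.07% and 0.740% were down in erCriz0, erAlec0 and erLor0, and 3 genes are too few to compare with these. CLDN5, CLDN17, CLDN18 and CLDN34 were not found in the table.

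Of 17 expressed plaque and scaffold proteins, 2 (11.8%) were up in erAlec0, beside 2.46% of all expressed genes, 0 were up in the other lines and 0 were down. These were CGNL1 (paracingulin), with 8.28 in naive cells, 8.33 in erCriz0, 9.43 in erAlec0 and 9.28 in erLor0, beside AMOTL2, an angiomotin-like scaffold, with 7.68, 7.96, 8.80 and 8.41 in the same order. Both were higher in erAlec0 and erLor0 than in naive cells. Of 16 adherens junction and desmosome genes, 1 (6.25%) was up in erAlec0 and in erLor0, beside 2.46% and 1.10% of all expressed genes. This was DSP, the desmosomal plaque protein desmoplakin, with RNA levels of 10.76 in naive cells, 10.84 in erCriz0, 11.78 in erAlec0 and 12.02 in erLor0. No gene was called among 8 expressed tight junction membrane proteins, 12 genes of apical polarity complexes, or 13 transcription factors of epithelial identity and epithelial-to-mesenchymal transition. With 8 to 13 genes per list, 0 calls cannot be set against a background of at most 2.65% up and 2.07% down. The medians of these 6 lists lay between -0.20 and 0.19 in all lines, where the medians of all expressed genes lay between -0.02 and 0.0020.

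**Figure D5:**
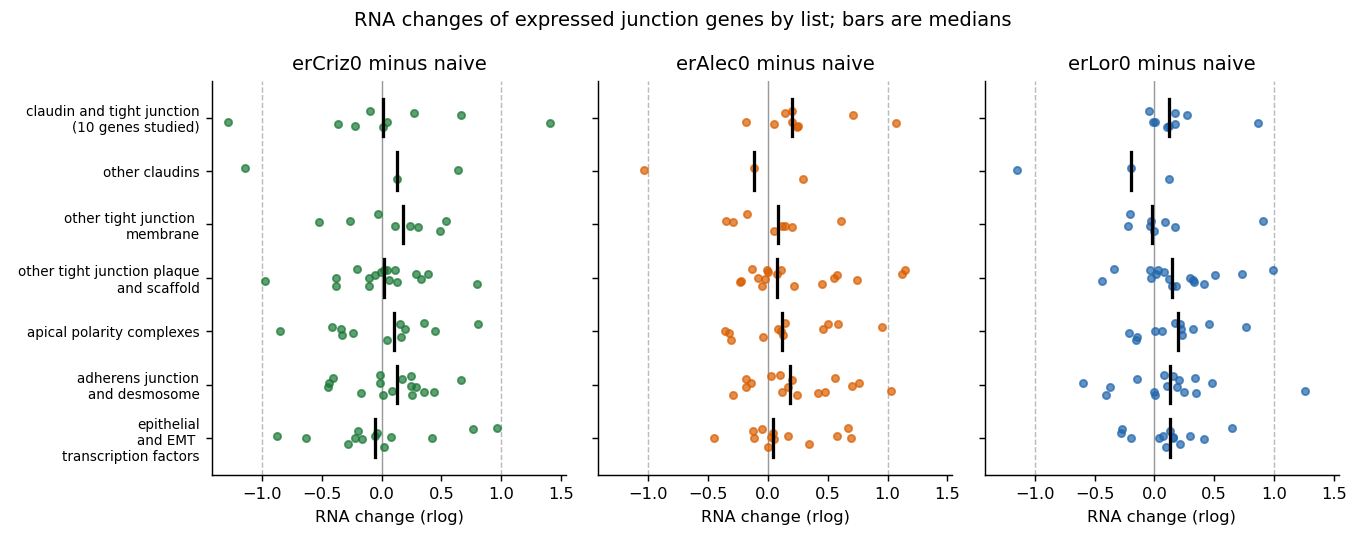
RNA change of each expressed gene, in rlog on the x axis, by list on the y axis and with 1 panel per resistant line; dots are genes, black bars are list medians and dashed lines mark -1 and 1. The list medians lie near 0 in every panel, and the few dots beyond the dashed lines are CLDN1, CLDN3, CLDN9, CLDN10, CGNL1, AMOTL2 and DSP.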

How the data were processed

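Bulk RNA-seq and H3K27ac ChIP-seq were taken for erCriz0, erAlec0, erLor0 and naive H3122, from 1 library per line and assay. The other 4 of the 8 samples of the series have no column in the table used and were not analysed here. The authors deposited 1 table of pairs of a peak and a gene up to 20 kb apart, with rlog values on a log2 scale computed with DESeq2. For RNA they aligned reads to hg38 with HISAT2 and counted with HTSeq-count; for ChIP-seq they used BWA, MACS2 and featureCounts, with peaks merged over 4 samples. Versions of these tools are not given in the sources used here. Columns of the authors' own correlations and p-values were not used, and 0 columns of per-sample values were left unmapped. Since rlog shrinks differences of features with few reads, changes of weak genes and peaks are understated.

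Changes were taken as resistant minus naive and counted at a limit of 1, the limit in the study's methods. The text names all 10 genes, their start-site peaks and, of the peaks above the minimum, those that gained and lost most, genes of 6 further lists that passed the limit, and the 3 genes nearest to the 2 members with the widest range. A start-site peak overlaps the 1000 bases on either side of the start of the Ensembl canonical transcript. The genes and lists were chosen with earlier results of these data known. Alternatives were library centring, quantile normalization, limits of 1.5-fold and of 2, filters, distances, windows and leaving out each gene. A planned description of the proteins was not made. A marker gene of the fixed lists is not reported here. GENCODE release 44 gave positions, and where identifier versions matched, coordinates were identical for 34115 of 34115 genes. The 15 RefSeq promoters of these genes were identical to hg38. The scripts were tested on simulated data. The scripts ran in Python 3.11.15 with pandas 2.3.3, numpy 2.4.6 and matplotlib 3.10.9.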

Additional observations from a re-analysis of the deposited data

Results flagged for a closer look

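Several values passed the limit in at least 1 line and had the opposite sign in another. With 1 library per line, none of these differences was tested. CLDN10 RNA changed by -1.15 in erLor0 and by 0.64 in erCriz0. The intron peak of CLDN12 22337 bases downstream of its start changed by -1.32 in erAlec0 and by 0.50 in erCriz0. The OCLN peak 15201 bases upstream of the start changed by 1.41 in erLor0 and by -0.05 in erCriz0. The TJP1 peak 145220 bases downstream of the start changed by 1.67 in erCriz0 and by -0.18 in erAlec0. In the TJP1 intron peak 27457 bases upstream of the start, the change was -1.58 in erAlec0 and 0.14 in erCriz0. The F11R peak 9003 bases upstream of the start changed by 1.53 in erLor0 and by -0.43 in erCriz0. In each of these 6 cases erCriz0 was the line that differed in sign from erAlec0 or erLor0. The 6 cases were taken from the genes and peaks named above, so this pattern need not hold for other peaks. At an OCLN intron peak not named above (chr5:69523286-69531586), erLor0 was the line that differed. Its changes were -1.03 in erCriz0, -0.11 in erAlec0 and 0.35 in erLor0.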

How the results depend on the processing

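Of 189 values computed under other settings, 183 stayed within 0.2 (values) or 1.5-fold (counts) of those reported and 0 reversed with a larger move. The other 6 are counts under another limit, which moved by its own construction. At a limit of 1.5-fold, 2 of the 10 genes were up in erCriz0, 2 in erAlec0 and 1 in erLor0. At a limit of 2 on the log2 scale, 0 were up in erCriz0, 0 down in erCriz0 and 0 up in erAlec0. None of the 60 values for single genes under library centring and quantile normalization moved by more than 0.2. Some changes near 0 still turned their sign under quantile normalization. CGN turned to -0.09 in erCriz0 and -0.11 in erLor0, TJP1 to -0.08 in erAlec0 and CLDN3 to 0.0023 in erLor0. The counts of genes with the same sign of RNA and start-site peak rest in part on such values. Medians near 0 had no fixed sign: that of RNA in erCriz0 lay between -0.05 and 0.06 and had the other sign in 1 of 13 settings and was 0 in 5, that of start-site peaks in erAlec0 lay between -0.10 and 0.05 with the other sign in 3 of 6, and that of paired peaks in erLor0 lay between -0.16 and 0.01 with the other sign in 1 of 16. The other 6 medians kept their sign. Centring shifted all peak changes of erLor0 by 0.10, that of erCriz0 by 0.08 and others by less. No paired analysis was possible because each line has 1 library. Without replicates or known depth, no error can be given for any value.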
